A study of Mus musculus with 4 samples.

Results

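Cdkn1c encodes p57Kip2, an inhibitor of cyclin-dependent kinases, and in cultured mouse muscle cells its transcripts were concentrated in a minority of the cells that had switched on myogenin. The row of this 1 gene among the 32285 genes of the matrices was followed across 5481 kept cells, from cells with no Myog to cells with the highest Myog. Non-cycling Myog-high cells were those with Myog at or above 1500 counts per 1000000 UMIs (CPM; a UMI, or unique molecular identifier, counts 1 captured RNA molecule) and with Mki67 plus Top2a, a pair of genes of dividing cells, under 75 CPM. There were 1854 such cells. Of these, 261 had Cdkn1c at or above 200 CPM and are called Cdkn1c-high, 1333 had no Cdkn1c molecule and are called Cdkn1c-zero, and 260 lay between. Both sides were chosen on the measured Cdkn1c values of these same libraries, so the differences between them are described and no test is attached to them.

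p57Kip2 belongs to the Cip/Kip family with p21 (Cdkn1a) and p27 (Cdkn1b), which bind complexes of cyclins and their kinases and hold cells out of the division cycle. The gene is imprinted: it is expressed mainly from the maternal chromosome, while on the paternal chromosome the long non-coding RNA Kcnq1ot1 silences genes of the domain in cis. In developing muscle p57Kip2 is known for acting with p21 in the withdrawal of myoblasts from the cycle, and MyoD is known to raise its expression in differentiating cells.

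The cells were skeletal muscle stem cells (MuSCs) of MyoD-KI mice, which carry a tdTomato reporter of MyoD. They were grown for 5 days in a growth medium with fetal bovine serum and Ultraser G and sorted by flow cytometry for high reporter signal. Single-cell 3′ RNA libraries were made with a 10x Genomics kit, and all 4 libraries carry this one genotype, treatment and gate. The labels give neither the age, sex and number of the mice nor the zygosity of the allele, and cells with low reporter signal were not analysed here. The reporter gate selected on MyoD, so cells that do not express it were selected against before any measurement.

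The 4 libraries are labelled as replicates 1 to 4, but 5944 barcodes occurred in every one of them, out of 5950 to 5974 per library. They therefore hold the same cells and were counted as 1 sample. Each library held between 62627341 and 68898900 UMIs. Values of the single libraries show how well the sampling of molecules repeats, not how animals or cultures differ, and no p-value is given. Intervals in parentheses are exact 95% intervals at the mean count of 1 library and cover counting error only.

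Cdkn1c (ENSMUSG00000037664) lies on chromosome 7 at 143458339 to 143461050, on the minus strand, in the GENCODE M21 annotation of GRCm38. It is a protein-coding gene of 4 exons, and the 3′ terminal exon spans 143458339 to 143459021. Its level was higher the more Myog a non-cycling cell had. It stood at 4.82 CPM (1.77 to 10.5) in the 166 cells without Myog, with 3.92, 7.0, 5.59 and 2.57 CPM in replicates 1 to 4. It was 7.48 CPM (5.37 to 10.1) in 561 cells with Myog under 150 CPM and 9.04 CPM (5.32 to 14.4) in 204 cells with Myog from 150 to under 500 CPM. These 3 neighbouring levels did not differ beyond their intervals.

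Above them each level lay outside the interval of its neighbours. Cdkn1c stood at 24.4 CPM (18.9 to 31.0) in 231 cells with Myog from 500 to under 1500 CPM, and at 83.1 CPM (76.0 to 90.6) in 482 cells from 1500 to under 3000 CPM. It reached 197 CPM (189 to 205) in 1059 cells from 3000 to under 6000 CPM and 353 CPM (332 to 374) in 313 cells at 6000 CPM and above. The 4 libraries gave 350, 340, 368 and 353 CPM in that highest group and 193, 197, 198 and 200 CPM in the group below it, so the libraries of the 2 groups did not overlap. Over all non-cycling Myog-high cells the level was 186 CPM (181 to 192), with 184, 185, 189 and 187 CPM in the 4 libraries.

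Cells still expressing Mki67 or Top2a at 75 CPM or more followed the same order at high Myog. The level was 78.0 CPM (69.9 to 86.7) in 286 such cells with Myog from 1500 to under 3000 CPM, 194 CPM (176 to 214) in 171 cells from 3000 to under 6000 CPM and 390 CPM (310 to 484) in 19 cells above. In each of these 3 Myog ranges the interval of the cycling cells overlapped that of the non-cycling cells. From 500 to under 1500 CPM of Myog the intervals did not overlap: 14.3 CPM (10.8 to 18.6) in 269 cycling cells stood below the 24.4 CPM of non-cycling cells. At Myog under 500 CPM the cycling groups lay between 5.44 and 10.9 CPM. Read as shares, at Myog from 3000 to under 6000 CPM and with each cell thinned to 5000 UMIs per library, 37.6% (30.2% to 45.4%) of cycling cells and 24.8% (22.2% to 27.5%) of non-cycling cells had a Cdkn1c UMI, and these intervals did not overlap. Over all Myog-high cells the level was 124 CPM (116 to 133) in the 476 cycling cells and 186 CPM in the non-cycling cells, which hold more cells of the higher Myog ranges.

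**Figure D1:**
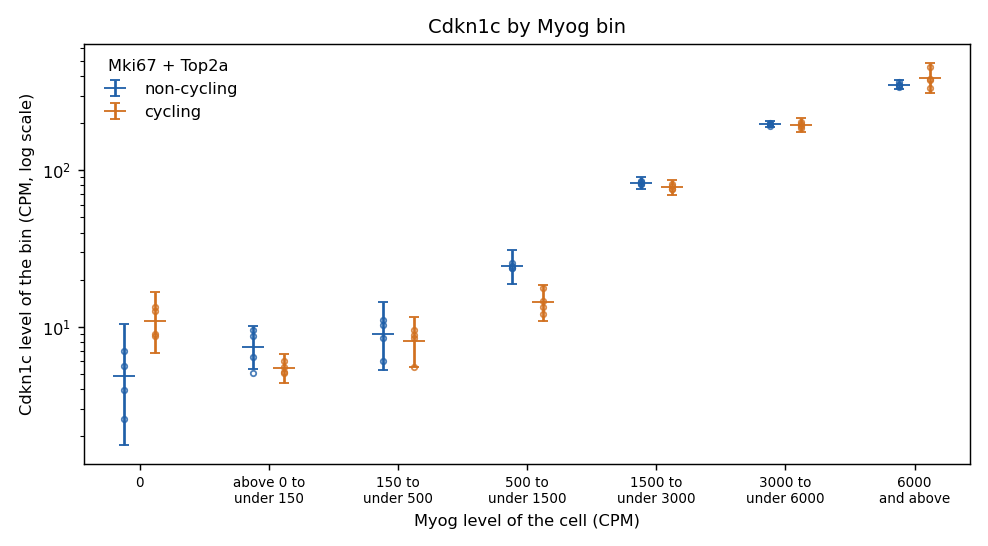
Cdkn1c level in CPM (log axis) by Myog range for non-cycling and cycling cells; points are the 4 libraries and bars the exact 95% intervals. The non-cycling levels run from 4.82 CPM without Myog to 353 CPM at Myog of 6000 CPM and above.

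The group level hid a wide spread between cells. The median non-cycling Myog-high cell had no Cdkn1c molecule, the 75th percentile was 20.6 CPM, the 90th 478 CPM, the 95th 1190 CPM and the highest cell 7041 CPM. The Cdkn1c-high cells were 14.1% of the 1854 (12.5% to 15.7%, Clopper-Pearson) and held 95.6% of the Cdkn1c molecules of these cells and 74.1% of those of all kept cells. The median Cdkn1c-high cell carried 37 Cdkn1c UMIs over the 4 libraries, or 815 CPM. In the 260 cells between the limits the median was 2 UMIs, and 128 of them (49.2%) had a single UMI. If the 4 libraries counted separate molecules, a count of 0 at the median depth of Cdkn1c-zero cells would allow up to 68.6 CPM in a single cell. The libraries may count some of the same molecules, and many cells are shallower, so the level allowed can be higher. A zero cell is thus not necessarily one with no Cdkn1c. The 3 cells just inside the limit had 201, 202 and 203 CPM, and the 3 just outside it had 199, 195 and 194 CPM.

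**Figure D2:**
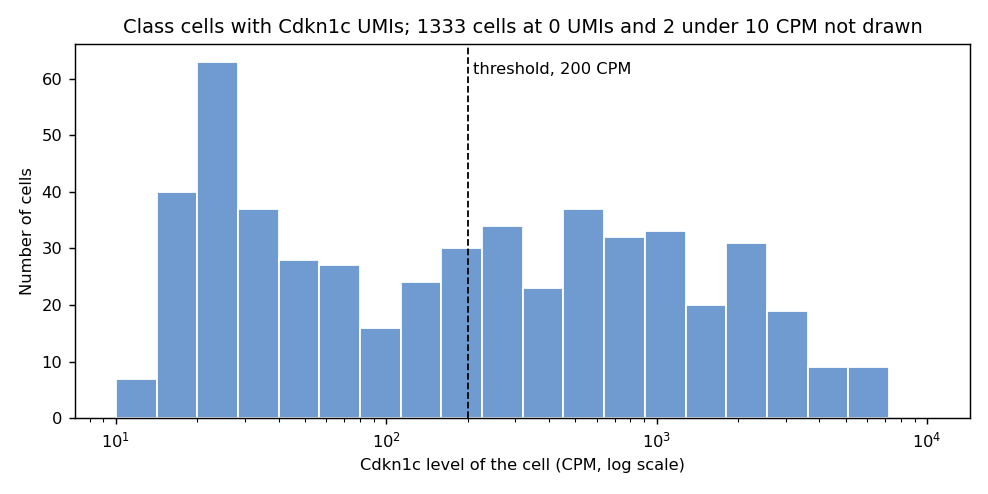
Number of non-cycling Myog-high cells (the class in the title) by their Cdkn1c level in CPM (log axis); the 1333 cells with 0 UMIs and 2 cells under 10 CPM are not drawn, and the line marks 200 CPM. The drawn cells run on without a break across the line, up to 7041 CPM.

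Among non-cycling cells the share of Cdkn1c-high cells grew with Myog from 500 CPM upward. It was 0.602% (1 of 166) without Myog, 0.357% (2 of 561) under 150 CPM and 0.490% (1 of 204) from 150 to under 500 CPM. Above that it was 2.16% at Myog from 500 to under 1500 CPM, 6.85% from 1500, 15.3% from 3000 and 21.1% from 6000 CPM. With every cell thinned to 5000 UMIs per library, at least 1 Cdkn1c UMI was found in 23.8% of non-cycling Myog-high cells and in 9.38% of the non-cycling cells without Myog. Before thinning these shares were 28.1% and 11.4%, at median depths of 43824 and 28104 UMIs. Free RNA and low expression in the cells without Myog cannot be told apart from these counts. The lowest Cdkn1c-high cell had 4 UMIs.

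Cells kept their Cdkn1c state when it was read in libraries not used for the Cdkn1c choice. The Myog and Mki67 plus Top2a limits were still applied over all 4 libraries. The 258 cells chosen as Cdkn1c-high in replicates 1 and 2 had 1281 CPM (1241 to 1323) in replicates 3 and 4, with 1289 and 1273 CPM in the 2 libraries, against 2.55 CPM in the 1394 cells chosen for 0 UMIs. Of the 258 cells, 231 (89.5%) passed the limit again and each had at least 1 UMI, while 2 of the zero cells (0.143%) now passed it. Chosen in replicates 3 and 4, 260 cells had 1256 and 1261 CPM in replicates 1 and 2, and 231 of them (88.8%) passed again. The libraries sample the same cells and may count some of the same captured molecules. The repeat is thus of the reading of each cell, is not independent, and is not a repeat of the experiment.

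Depth and cell quality differed little between the 2 sides, and Myog differed more. The median depth was 41471 UMIs in Cdkn1c-high cells and 43734 in Cdkn1c-zero cells. The median number of genes per library was 2894.5 and 3000.2, and the mitochondrial share 3.96% and 4.03%. The median Myog was 5028 against 4002 CPM. The summed level of the sarcomere genes was 45164 against 44305 CPM, and 66.3% against 65.2% of the cells had no Mki67 or Top2a molecule. Divided into deciles by the summed sarcomere genes, the cells held between 8.6% Cdkn1c-high cells, in the lowest decile, and 17.3%, in the fifth, sixth and ninth, with 11.3% in the highest. The Cdkn1c-high cells were thus found at every stage of sarcomere gene expression and were not the cells with most of it.

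The label of myocytes was checked against 9 myocyte markers other than Myog, which had chosen the cells. They summed to 25922 CPM in Cdkn1c-high cells, 24512 CPM in Cdkn1c-zero cells and 4078 CPM in the other kept cells. All 9 were at least 1.5-fold higher in non-cycling Myog-high cells than in the other kept cells. Between the sides Actc1 differed most, at 5351 CPM in Cdkn1c-high and 2774 CPM in Cdkn1c-zero cells. Mymk, Mymx, Tnnt1 and Ckm were also higher in Cdkn1c-high cells, and Acta1, Myh3, Ttn and Tnnt3 were lower. Summed fibroblast markers stood at 46.9 CPM in Cdkn1c-high and 59.9 CPM in Cdkn1c-zero cells, with 44.7 to 50.8 CPM and 56.7 to 61.4 CPM over the libraries, and 3 of the 6, Pdgfra, Lum and Col1a1, were at 0 in Cdkn1c-high cells. Pericyte markers summed to 13.0 and 18.1 CPM, endothelial markers to 1.92 and 2.30 CPM, Schwann cell markers to 1.5 and 2.20 CPM with Sox10 at 0, and immune markers to 0.584 and 0.526 CPM with Ptprc at 0. Adipocyte markers summed to 8.42 and 16.4 CPM; Adipoq was at 0 and nearly all of the sum was Pparg, at 8.34 and 16.3 CPM. Muscle stem or progenitor markers summed to 53.1 CPM in Cdkn1c-high cells, 72.7 CPM in Cdkn1c-zero cells and 256 CPM in the other kept cells. None of the non-muscle sums was higher in Cdkn1c-high cells by more than the range of the libraries.

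Of 10144 genes with at least 50 UMIs per library over both sides, 135 (1.33%) were higher and 132 (1.3%) lower in Cdkn1c-high cells, 2.63% in either direction. Higher or lower here means at least 1.5-fold from the median ratio of all genes, in the same direction in each of the 4 libraries, and the ratio is that of CPM plus 1 on the log2 scale. The genes with extreme ratios named below were picked from these same ratios, and extremes picked so tend to be overestimates. The libraries hold the same cells, so their values can lie apart between the sides at small ratios too. Acta1, at a log2 ratio of -0.24, had 4713 to 4858 CPM in Cdkn1c-high and 5606 to 5644 CPM in Cdkn1c-zero cells. The share of all genes whose libraries lay apart was not counted. With both sides compared within deciles of summed sarcomere gene level, 135 (1.33%) were higher and 122 (1.2%) lower, 2.53% in either direction, of which 124 and 113 were among the genes above. Within deciles of Myog the numbers were 113 (1.11%) and 91 (0.897%), 2.01% in either direction, with 95 and 82 shared.

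None of the other cell cycle inhibitors passed the rule. Over all genes 2.63% passed in either direction, so a count of 0 in a short list is near that share. The 6 measured were Cdkn1a, Cdkn1b, Cdkn2a, Cdkn2b, Cdkn2c and Cdkn2d, and their median log2 ratio was -0.09 beside -0.02 for all genes. Cdkn1a, encoding p21, had 2522, 2553, 2491 and 2525 CPM in Cdkn1c-high cells and 2484, 2491, 2505 and 2486 CPM in Cdkn1c-zero cells. The libraries of the 2 sides overlapped, and the log2 ratio was 0.02 (-0.02 to 0.05). Cdkn1b, encoding p27, stood at 23.9 against 20.2 CPM, a log2 ratio of 0.23 (-0.15 to 0.59). Cdkn2c, encoding p18, stood at 16.2 against 15.4 CPM. Cdkn2d was past 1.5-fold lower by the mean, at a log2 ratio of -0.62 (-1.08 to -0.10), but not in every library. Among 11 cyclins and kinases only Cdk6, a kinase partner of the D-type cyclins, passed the rule, at 2.08 against 5.69 CPM. It did not pass under several alternatives, such as without replicate 3, after thinning or without the deepest 5% of cells. The list's median log2 ratio was -0.43. By the mean alone Ccnb1, at -0.76 (-1.23 to -0.28), and Ccnd2, at -0.82 (-1.61 to 0.16), were past 1.5-fold. So was Cdk2, in the higher direction, at 0.68 (0.25 to 1.09). Of 12 measured proliferation genes only Rrm2, a subunit of the ribonucleotide reductase that makes DNA precursors, was lower, at 96.9 against 185 CPM. None of 7 measured Rb and E2F genes passed.

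In the Kcnq1 domain, where Cdkn1c lies, Kcnq1ot1 was the gene that was higher. Its level was 370.7, 372.1, 371.9 and 358.8 CPM in Cdkn1c-high cells and 206.2, 211.1, 198.4 and 207.1 CPM in Cdkn1c-zero cells, so the lowest high value lay far above the highest zero value. The log2 ratio was 0.84 (0.74 to 0.94). Kcnq1ot1 rose with the amount of Cdkn1c: 206 CPM at 0 UMIs, 261 CPM between the limits, 329 CPM at 200 to under 1000 CPM of Cdkn1c and 423 CPM at 1000 CPM and above. The RNA that silences the domain on one chromosome was thus more abundant in the cells with more Cdkn1c; which chromosome either transcript came from cannot be read from these counts. Kcnq1ot1 (143203458 to 143296549, minus strand) lies inside Kcnq1 on the plus strand, and the strand setting of the counting is not given in the sources used here, so reads of the pair cannot be told apart.

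The other genes of the domain did not pass the rule. Of 5 members measured, Kcnq1ot1 alone passed the rule, and the list's median log2 ratio was 0.01. Cd81, encoding a tetraspanin, had the lowest ratio of the domain, -0.35. Phlda2, an imprinted growth regulator of the placenta, had no molecule on either side, and Kcnq1, a potassium channel, stood at 1.33 against 0.12 CPM with too few molecules for the rule. Within 1000 kb on each side of Cdkn1c the annotation holds 41 genes, of which 16 were measured. Of these 1 was higher and 0 were lower, where 1.33% of all genes were higher and 1.3% lower. Their median log2 ratio was 0.00.

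**Figure D3:**
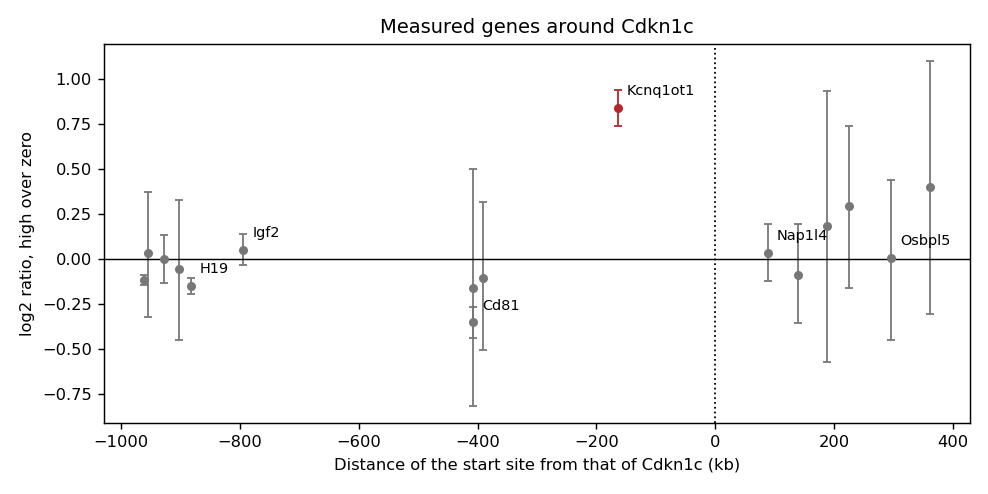
Log2 ratio of Cdkn1c-high over Cdkn1c-zero cells for the 16 measured genes within 1000 kb of the Cdkn1c start, by distance in kb; bars are exact 95% intervals. Kcnq1ot1 stands alone at 0.84, and the other 15 genes are drawn in grey as not past the rule, with Cd81 lowest at -0.35; the dotted line marks the Cdkn1c start.

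Of the lists, that of imprinted genes outside the Kcnq1 domain held the most higher genes. Of 22 measured, 6 were higher, namely Meg3, Rian, Mirg, Dlk1, Rtl1 and Nnat, and 0 lower, where 1.33% of all genes were higher and 1.3% lower. Meg3, Rian, Mirg, Dlk1 and Rtl1 are neighbours in the same domain on chromosome 12, so the count is mostly of that domain. The median log2 ratio of the list was 0.24 beside -0.02 for all genes. This list was drawn up with earlier results of these libraries known and is no independent support. Meg3, a maternally expressed long non-coding RNA of the Dlk1-Dio3 domain, had 402.9, 393.1, 416.3 and 392.5 CPM in Cdkn1c-high cells and 199.5, 202.1, 210.0 and 202.5 CPM in Cdkn1c-zero cells. The libraries of the sides were far apart, and the log2 ratio was 0.98 (0.88 to 1.07). Unlike Kcnq1ot1, Meg3 did not rise steadily with Cdkn1c: it stood at 489 CPM in cells with 200 to under 1000 CPM of Cdkn1c and at 281 CPM in those at 1000 CPM and above.

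Rian, the RNA next to Meg3 that carries small nucleolar RNAs, had 103.9, 107.1, 105.1 and 89.6 CPM against 59.2, 55.6, 54.0 and 56.6 CPM, a log2 ratio of 0.83 (0.65 to 1.03). Mirg, a host of microRNAs in the same cluster, had 24.8, 19.1, 24.2 and 21 CPM against 11.1, 8.55, 11.5 and 10.4 CPM. The libraries of the 2 sides did not overlap for either RNA, as they also did not for H19, which did not pass the rule. Rian missed the rule, at 0.51, without the deepest 5% of cells, where Meg3 stood at 0.69, and at 0.56 in cells with 0 UMIs of Mki67 and Top2a. Dlk1, the paternally expressed Notch-like membrane protein of that domain, had 8.14, 7.12, 5.97 and 8.18 CPM against 2.44, 1.60, 1.51 and 2.17 CPM. One cell held 21.6% of the Dlk1 molecules of the Cdkn1c-high side, and Dlk1 was higher in cells at 1000 CPM of Cdkn1c and above, at 15.2 CPM, while cells at 200 to under 1000 CPM had 1.59 CPM. Without the richest cell of each side the log2 ratio of Dlk1 was 1.41 in place of 1.52, and Dlk1, Rian and Rtl1 no longer passed the filter and rule. With cells chosen anew and read without replicate 1, Dlk1 and Rian did not pass, and without replicate 3 Rian did not. Rtl1, a retrotransposon-derived gene of the domain, stood at 6.17 against 2.39 CPM, and Nnat, encoding neuronatin, at 8.76 against 2.35 CPM.

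Igf2, the imprinted growth factor gene, and H19, its non-coding neighbour, lie in the adjoining imprinted domain and did not pass the rule. Igf2 stood at 435 against 419 CPM, a log2 ratio of 0.05. H19 stood at 1671 against 1855 CPM, a log2 ratio of -0.15. Plagl1 and Mest, at log2 ratios of 0.56 and 0.54, came closest to the rule among the imprinted genes that did not pass it.

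**Figure D4:**
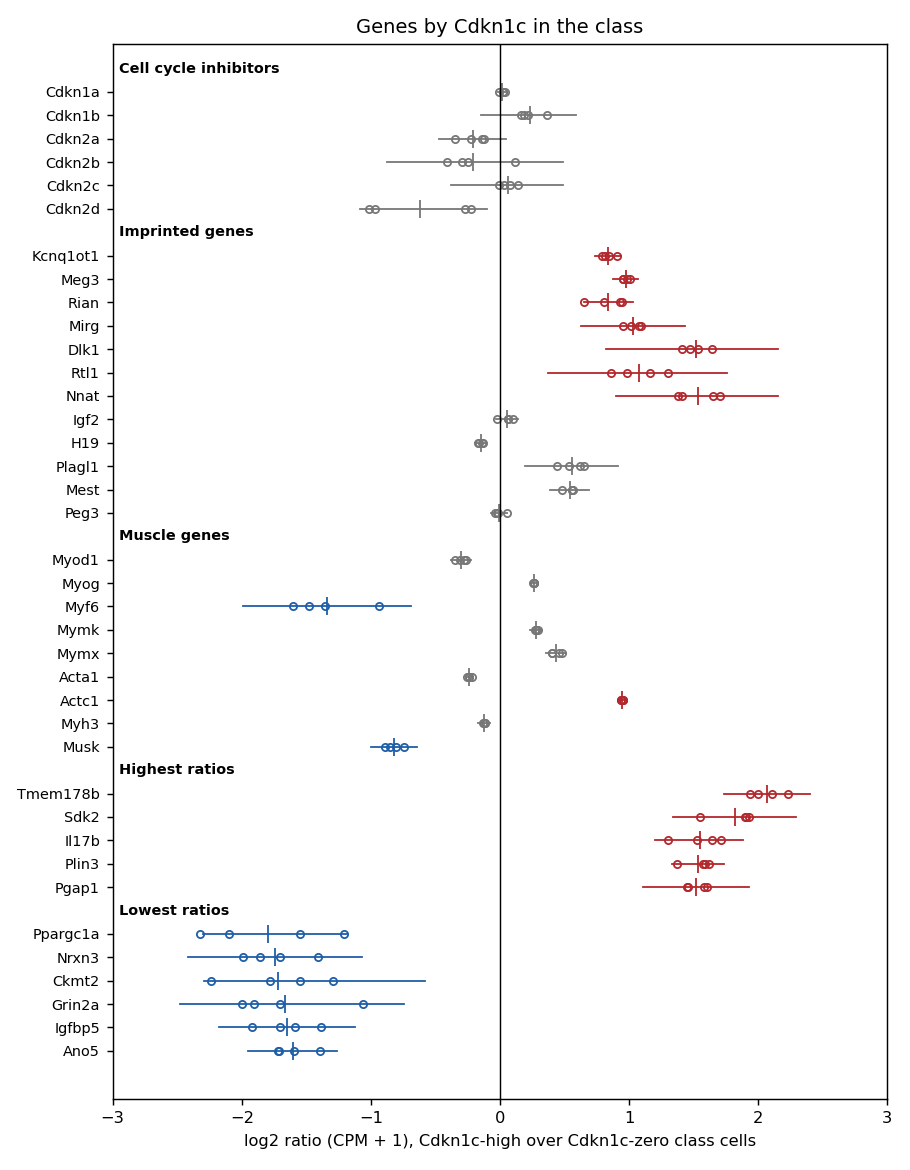
Log2 ratio of Cdkn1c-high over Cdkn1c-zero cells for named genes, ordered by group; points are the 4 libraries and horizontal bars the exact 95% intervals, with a tick at the mean. Red marks genes higher and blue genes lower by the rule among the non-cycling Myog-high cells (the class in the axis label); Actc1 lies at 0.95 and Cdkn1a at 0.02.

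Among the muscle genes, 1 of 27 measured sarcomere genes was higher and 0 lower, with a median log2 ratio of -0.10. This count is near the share of all genes, of which 1.33% were higher and 1.3% lower. That gene was Actc1, encoding the cardiac alpha-actin that developing skeletal muscle also uses. It had 5375, 5344, 5318 and 5368 CPM in Cdkn1c-high cells and 2769, 2783, 2770 and 2775 CPM in Cdkn1c-zero cells, a log2 ratio of 0.95 (0.92 to 0.97). Actc1 climbed with Cdkn1c from 2774 CPM at 0 UMIs over 3698 and 5058 CPM to 5753 CPM at 1000 CPM of Cdkn1c and above. The median Cdkn1c-high cell had 5006 CPM of Actc1 and the median Cdkn1c-zero cell 1603 CPM. Acta1, the skeletal alpha-actin of mature fibres, was at 4766 against 5625 CPM, a log2 ratio of -0.24, and Myh3, the embryonic myosin heavy chain, at 1543 against 1678 CPM.

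Of 13 muscle regulators only Myf6, the late member of the MyoD family, passed the rule, in the lower direction. It had 5.54, 6.79, 4.97 and 4.27 CPM against 15.7, 13.9, 15.6 and 15.0 CPM, a log2 ratio of -1.34 (-1.99 to -0.69). The sides did not overlap, and 1 cell held 32.3% of the Myf6 molecules of the Cdkn1c-high side; without the richest cell of each side the ratio was -1.73. Myod1 stood at 516 against 635 CPM, a log2 ratio of -0.30, and Myog at 4895 against 4081 CPM, a log2 ratio of 0.26; Myog also chose the cells. Mymk, encoding the fusion protein myomaker, stood at 1524 against 1255 CPM, a log2 ratio of 0.28. Of 9 fusion and adhesion genes 0 passed, where 2.63% of all genes passed in either direction. Compared within deciles of Myog, the log2 ratio was 0.12 for Mymk, 0.73 for Actc1, -1.02 for Myf6, -0.28 for Myod1 and -0.06 for Myh3. That of Acta1 was -0.34, further from 0 than without the deciles.

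Musk, the receptor kinase that organises the neuromuscular synapse, was the only 1 of 10 synapse and calcium genes past the rule. It had 94.1, 99.97, 101.8 and 91.4 CPM in Cdkn1c-high cells and 170.7, 175.4, 170.7 and 170.7 CPM in Cdkn1c-zero cells, a log2 ratio of -0.82, with no overlap. Over all genes 2.63% passed in either direction, and in lists this short a count of 0 or 1 is too few to set against that share. The remaining lists gave few genes. Zbtb16, at 8.42 against 17.2 CPM, and Sgk1, at 5.84 against 12.8 CPM, were lower among 7 glucocorticoid targets, whose median log2 ratio was -0.42. Compared within deciles of Myog, the log2 ratio of Zbtb16 was -0.51, and of the 7 lower list genes Musk, Rrm2 and Sgk1 passed the rule while Cdk6, Hspa1b, Myf6 and Zbtb16 did not. Pmaip1, encoding the cell death protein Noxa, was higher among 10 p53 targets, at 15.4 against 8.21 CPM. Hspa1b, a heat shock gene, was lower among 6 stress and immediate early genes, at 1.25 against 3.93 CPM. None of 8 Notch genes and none of 10 Tgf-beta and Bmp genes passed. Of 5 nuclear RNAs Meg3 and Kcnq1ot1 were higher, both counted above, and Malat1 stood at a median of 7897 CPM in Cdkn1c-high and 8483 CPM in Cdkn1c-zero cells.

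The gene with the highest ratio was Tmem178b, which encodes a membrane protein. It had 45.6, 43.0, 43.4 and 40.5 CPM in Cdkn1c-high cells and 8.93, 10.0, 9.29 and 9.82 CPM in Cdkn1c-zero cells, a log2 ratio of 2.07 (1.74 to 2.40). Its level followed that of Cdkn1c, from 9.51 CPM at 0 UMIs over 18.7 and 32.9 CPM to 57.4 CPM at 1000 CPM of Cdkn1c and above. Next came Sdk2, a cell adhesion molecule of neurons, at 18.4 against 4.49 CPM, and Il17b, a cytokine of the interleukin 17 family, with a log2 ratio of 1.55. Plin3, a protein of lipid droplets, stood at 105 against 35.5 CPM. Pgap1, which remodels GPI anchors, Nefh, the heavy neurofilament, and Itga4, the integrin alpha 4 chain, had log2 ratios of 1.52, 1.52 and 1.44. St3gal4, a sialyltransferase, and Lypd6 had 1.44 and 1.41. With Nnat, Dlk1 and a gene model these were the 12 highest, and they share no single function.

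The lowest ratio was that of Ppargc1a, the coactivator that drives mitochondrial biogenesis, at 7.84 against 28.2 CPM and a log2 ratio of -1.80 (-2.30 to -1.18). Ckmt2, the mitochondrial creatine kinase of muscle, stood at 0.58 against 4.08 CPM, and Lpl, the lipase that takes up lipoprotein fat, at 12.7 against 36.7 CPM. Lpl was also lower in all non-cycling Myog-high cells, at 32.2 CPM, than over all kept cells, at 44.2 CPM. Igfbp5, an IGF-binding protein induced in myoblast differentiation, stood at 9.01 against 30.1 CPM, and Ano5, a membrane protein mutated in limb-girdle dystrophy, at 22.9 against 71.5 CPM. Cacnb2, a calcium channel subunit, Nrxn3 and Grin2a, proteins of neuronal synapses, Il1b, a cytokine, Ndst4 and Fmo1, both enzymes, and Kcnj15, a potassium channel, lay between -1.74 and -1.38.

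Within deciles of summed sarcomere gene level, the 8 highest were Tmem178b, Sdk2, Il17b, Plin3, Nefh, Itga4, St3gal4 and Nnat. The 8 lowest were Ppargc1a, Nrxn3, Ckmt2, Grin2a, Igfbp5, Ano5, Lpl and Il1b. All 16 were also among the 24 extremes without the deciles.

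Cycling Myog-high cells, which share no cell with the contrast above, gave a second look at the same genes. Of these 476 cells 62 were Cdkn1c-high, with 828 CPM of Cdkn1c, and 288 were Cdkn1c-zero. They came from the same libraries and culture, and the comparison was added after the data were seen. The sides differed in Myog, with medians of 3774 and 2576 CPM, more than they did among the non-cycling cells. Of 7590 genes measured, 325 (4.28%) were at least 1.5-fold higher by the mean over the libraries and 185 (2.44%) lower. By the rule of every library, 137 (1.81%) were higher and 31 (0.408%) lower. Of the 135 higher genes 76 were measured here, and 65 of them were again at least 1.5-fold higher. Of the 132 lower genes 81 were measured, and 33 were again at least 1.5-fold lower. By the rule of every library, 46 of the 135 and 14 of the 132 passed again. Each of these counts is a larger share than that of all genes; whether the higher and the lower genes differ in this was not tested.

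Meg3, Rian and Actc1 had larger ratios in the cycling cells. Meg3 stood at 256 against 67.1 CPM, a log2 ratio of 1.92 (1.66 to 2.18), and Rian at 60.9 against 19 CPM, a log2 ratio of 1.63. Kcnq1ot1 stood at 407 against 197 CPM, a log2 ratio of 1.04 (0.85 to 1.22), close to its ratio in the non-cycling cells. Mirg, Nnat, Dlk1 and Rtl1, higher in the non-cycling cells, did not have the 50 UMIs per library needed here. Mirg stood at a log2 ratio of 0.90 (-0.25 to 2.01) and Nnat at 1.14 (0.06 to 2.12), and Dlk1 had no molecule in the Cdkn1c-high cells. Of 15 imprinted genes measured outside the Kcnq1 domain, Meg3 and Rian were higher and 0 were lower. The median log2 ratio of the 15 was 0.39 beside -0.02 for all genes. Actc1 stood at 3402 against 851 CPM, a log2 ratio of 2.0. Here 7 of 27 measured sarcomere genes, Actc1 among them, were higher and 0 lower, where 1.81% of all genes were higher. The list median was 0.37. Mymk and Mymx of 9 fusion and adhesion genes and Mef2c of 12 muscle regulators were higher by the rule too, unlike in the non-cycling cells. So were Rb1, Casq2 and Egr1. Cdkn1a, near 0 before, now stood at 1601 against 1242 CPM, a log2 ratio of 0.37 (0.28 to 0.45), which is under the 1.5-fold rule. The part of the Myog difference between the sides in these values was not tested.

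None of the division genes passed the rule between cycling cells with and without Cdkn1c. Mki67 stood at 243 against 218 CPM, a log2 ratio of 0.15 (-0.07 to 0.37), and Top2a at 533 against 447 CPM, a log2 ratio of 0.25 (0.10 to 0.40), though both genes chose these cells. Of 13 measured proliferation genes, 0 were higher and 0 lower in every library. That is near the share of all genes in these cells, 1.81% higher and 0.408% lower. Some differed without meeting the rule in every library, and the mean ratios of Rrm2 and Mcm5 were past 1.5-fold. Rrm2 stood at 315 against 499 CPM, a log2 ratio of -0.67 (-0.85 to -0.48), and its libraries did not overlap. Pcna, the replication clamp, was at -0.53 (-0.95 to -0.12) and Mcm5, a subunit of the replicative helicase, at -0.86 (-1.57 to -0.18), while the intervals of Mcm2, Mcm3, Mcm6 and Tyms spanned 0.

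**Figure D5:**
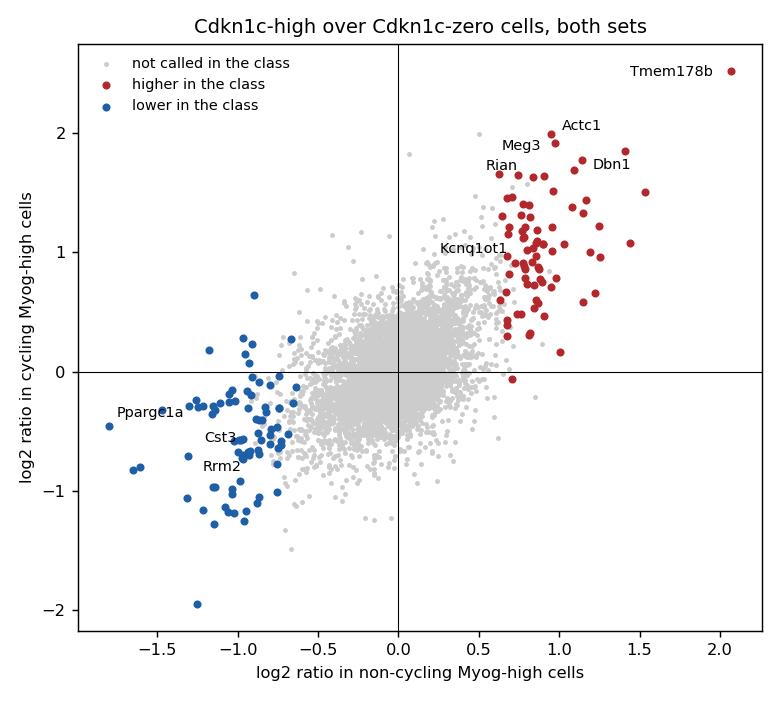
Log2 ratio of Cdkn1c-high over Cdkn1c-zero cells for each gene measured in both sets, in non-cycling (horizontal) and cycling (vertical) Myog-high cells. Of the 76 genes in red, higher in non-cycling cells, 75 lie above the median in cycling cells, and of the 81 in blue, lower there, 74 lie below it, where 50% of all genes lie on each side.

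Many genes had a course like that of Cdkn1c across the Myog ranges. Over 13 combinations of Myog range and cycling state, leaving out 1 with 19 cells, 126 of 13132 genes had a Pearson r of at least 0.95 with Cdkn1c on the log2 scale. The 8 most alike were Frmd4b (0.991), Kremen2 (0.990), Dgkd (0.989), Slc29a1 (0.988), Ermap (0.985), Elmo1 (0.984), Rap1gap2 (0.984) and Smim7 (0.983). These points share their libraries and are ordered by Myog, so any gene that climbs with Myog scores high. Between Cdkn1c-high and Cdkn1c-zero cells, Frmd4b, Kremen2 and Elmo1 were higher, with log2 ratios of 0.90, 0.78 and 0.78. Slc29a1, a nucleoside transporter, and Smim7 had ratios of 0.04 and 0.00, and Dgkd, Ermap and Rap1gap2 did not pass the rule either.

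From cell to cell among the 1854 non-cycling Myog-high cells, no gene tracked Cdkn1c closely. The highest r was 0.26, for Tmem178b, and the lowest -0.28, for Cst3, over 10495 genes, and correlations this weak in sparse counts are no finding. The next highest were Marcksl1, Spg21, Heg1, Plin3, Dbn1, Actc1 and Tmem200a, from 0.256 to 0.230. As group levels, Dbn1, encoding the actin-binding protein drebrin, stood at 286 CPM in Cdkn1c-high and 129 CPM in Cdkn1c-zero cells, and Spg21 at 717 and 369 CPM. Cst3, the secreted protease inhibitor cystatin C, stood at 1021 and 1956 CPM, a log2 ratio of -0.94. The others at the low end were Pdlim3, Atp6v1g1, Serpinb6a, Ltbp1, Tmem176b, Timp2 and Hspb1.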

How the data were processed

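The authors deposited 4 filtered matrices of UMI counts (whole numbers per gene and cell, not normalized). The matrices were written by Cell Ranger 7.1.0, per the file headers, while the submitters' processing notes name Cell Ranger 3.1.0 and the builds mm10 and GRCm39 with no role; the build, strand and intron settings of the counting are not given in the sources used here. Gene positions come from GENCODE M21 (GRCm38), matched by Ensembl ID for 99.6% of the genes. Cells had to be in all 4 libraries, with a mean of at least 1000 genes and under 10% mitochondrial UMIs; 463 barcodes were left out. Doublets were not called, and leaving out the deepest 5% of cells was an alternative.

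Counts were summed over cells and libraries and scaled to CPM. Ratios are of CPM plus 1, averaged on the log2 scale over the libraries, for genes with a mean of at least 50 UMIs per library. Intervals are Poisson (levels), Clopper-Pearson (shares) and conditional binomial (ratios). The 4 libraries share their cells, so 1 sample remained and no count model was fitted; edgeR 4.0.16 served for scaling factors alone. Python 3.11.15 was used for the rest.

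The gene, its limits, the gene lists and the alternatives were chosen with earlier results of these data known. Named are list members past the rule, members with set roles (such as Cdkn1a, Igf2 and Myod1), the 12 highest and 12 lowest ratios, the 8 highest and 8 lowest within sarcomere deciles, and the 8 genes most like Cdkn1c by each measure. Other names were chosen after their values were seen: Cdkn2d, Ccnb1, Ccnd2, Cdk2, Cd81, Plagl1, Mest, Malat1, and the proliferation genes in the cycling cells. The sequence of Cdkn1c is not shown.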

Additional observations from a re-analysis of the deposited data

Results flagged for a closer look

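In 98 sets of 4 library values, 4 had 1 library apart from the other 3 by Dixon's limit, where chance gives about 5%. The log2 ratio of Sdk2 was 1.55 in replicate 3 and 1.90 to 1.93 in the others. That of Nefh was 1.28 in replicate 3 against 1.57 to 1.63. That of Cacnb2 was -1.20 in replicate 2 against -1.62 to -1.55. That of Tmem200a was 1.62 in replicate 1 against 1.33 to 1.35. Each of the 4 genes kept its direction in all libraries.

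The 463 barcodes left out for few genes or a high mitochondrial share also held Cdkn1c, at 9.50 CPM (4.03 to 18.9), from 7.75 UMIs per library. Over non-mitochondrial UMIs alone the level was 14.4 CPM, against 81.2 CPM in the kept cells.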

How the results depend on the processing

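No paired analysis was possible because the 4 libraries hold the same cells of 1 group. Of 150 comparisons of summary values 122 stayed near the main value, and none reversed. Of 5244 comparisons over 209 named genes and 26 alternatives 334 moved, 98 of them in the cycling cells. No gene past the rule changed sign where it had enough molecules to be measured. Of 141 named genes not past the rule that were measured in the cycling cells, 41 changed sign there, 7 of them with both intervals off 0 (Acta1, Malat1, Mybph, Myh1, Myh3, Myl1 and Ttn). The Cdkn1c level of 186 CPM became 196 with stricter cells, 228 at Myog of 3000 CPM and above, 177 from 1000 CPM, 198 with 0 UMIs of Mki67 and Top2a, 202 after thinning and 196 as a mean of single cells. The share of Cdkn1c-high cells, 14.1%, became 16.6% at Myog of 3000 CPM and above, 16.6% at a limit of 100 CPM and 10.9% at 400 CPM. The 135 higher genes became 85 after thinning, 82 with a pseudocount of 5 CPM, 80 with a minimum of 200 UMIs and 26 at 2-fold. The 132 lower genes became 65 with that pseudocount, 76 with that minimum, 24 at 2-fold, 235 and 257 with cells chosen in one pair of libraries and read in the other, where 2 libraries and not 4 must pass, and 31 in the cycling cells. Without each library in turn there were 152 to 161 higher and 154 to 167 lower genes. List members higher, 9, became 5 with stricter cells, 5 after thinning, 5 with the minimum of 200 UMIs, 2 at 2-fold and 16 in the cycling cells. List members lower, 7, became 3 within Myog deciles, 0 at 2-fold, 12 when chosen in replicates 3 and 4, and 0 in the cycling cells. Beyond the alternatives' own construction, the cause was not tested. The cycling cells, the removal of each gene's top cell and ratios not centred on the median were chosen after seeing the data. Over up to 25 alternatives, the cycling cells left out, the log2 ratio ran from 0.76 to 0.99 for Kcnq1ot1, 0.69 to 1.11 for Meg3, 0.73 to 1.02 for Actc1 and -1.88 to -0.95 for Myf6. In the cycling cells it was 1.04, 1.92 and 2.0 for the first 3 and 0.23 (-1.22 to 1.65) for Myf6, on 17 UMIs per library. Genes at a few CPM, such as Dlk1, Rtl1, Nnat and Cdk6, rest on few molecules.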

Other observations

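Meg3, like Cdkn1c, was carried by a minority of the non-cycling Myog-high cells, and the 2 minorities overlapped in part. The median cell had no Meg3 molecule on either side, while the 90th percentile was 1529 CPM in Cdkn1c-high cells and 277 CPM in Cdkn1c-zero cells. Among the 1351 cells with 0 Meg3 UMIs, 176 (13.0%) were Cdkn1c-high, and among the 236 cells with Meg3 at or above 200 CPM, 53 (22.5%, 17.3% to 28.3%). Most cells rich in Cdkn1c therefore had no Meg3 molecule. Kcnq1ot1 was spread differently: the median was 245 CPM in Cdkn1c-high and 144 CPM in Cdkn1c-zero cells, so that the shift reached the middle of both groups. Plin3, Dbn1 and Spg21 had shifted medians too, at 67.3 against 19.2 CPM, 241 against 86.1 CPM and 649 against 299 CPM. These splits were chosen after the ratios were seen.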
